A study of Mus musculus with 6 samples.

Results

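The olfactory bulb was compared with the cerebral cortex in the brains of mice given one dose into the nose. The comparison uses 4 of the 6 arrays of the series, which were taken by their titles: the olfactory bulb and the cortex, each with 1 saline array and 1 array after PAMAM. All 4 groups were male BALB/c mice, an inbred strain, aged 8 weeks, with tissue isolated 24 h after the dose. The saline groups are the controls (0 mg/kg), and the PAMAM groups received polyamidoamine dendrimers, branched synthetic polymers used as carriers, at 0.15 mg/kg. RNA on each array was a pool from 6 experiments, so a region is represented by 2 arrays, and no array shows the spread between animals. Whether the bulb and the cortex came from the same mice is not given in the sources used here. The remaining 2 arrays, from the hippocampus, enter only where they are named.

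The olfactory bulb receives the axons of the sensory neurons of the nose, which end on mitral and tufted cells, the glutamatergic output neurons. Most other bulb neurons are inhibitory granule and periglomerular cells, which keep being added in adult mice by neuroblasts that migrate from the ventricle wall. The cortex is built of layers of glutamatergic pyramidal neurons of pallial origin, with fewer inhibitory neurons that migrate in from the ganglionic eminences. The transcription factors of these lineages are well known: Tbx21 and Eomes in mitral and tufted cells, the Dlx and Sp8 factors in bulb interneurons, and Neurod2 and Neurod6 in cortical pyramidal neurons.

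The stretches directly upstream of 5 genes of these lineages are shown because the genes stand on opposite sides of the comparison: Tbx21 and Doc2g mark mitral and tufted cells, Th makes the dopamine of periglomerular cells, and Neurod2 and Neurod6 mark pyramidal neurons. Each is the 250 bases before the annotated start, 5′ to 3′ on the gene's strand, from RefSeq (GRCm38.p6): chr11:97115332-97115581, minus strand, for Tbx21; chr19:4003135-4003384, plus strand, for Doc2g; chr7:142899996-142900245, minus strand, for Th; chr11:98329646-98329895, minus strand, for Neurod2; and chr6:55681264-55681513, minus strand, for Neurod6. Capitals mark a match to one of 4 searched motifs.
Tbx21: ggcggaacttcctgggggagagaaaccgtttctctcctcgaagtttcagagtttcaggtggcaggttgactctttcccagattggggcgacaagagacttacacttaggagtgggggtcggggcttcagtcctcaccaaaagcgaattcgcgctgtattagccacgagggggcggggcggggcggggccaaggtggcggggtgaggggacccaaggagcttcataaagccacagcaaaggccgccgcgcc
Doc2g: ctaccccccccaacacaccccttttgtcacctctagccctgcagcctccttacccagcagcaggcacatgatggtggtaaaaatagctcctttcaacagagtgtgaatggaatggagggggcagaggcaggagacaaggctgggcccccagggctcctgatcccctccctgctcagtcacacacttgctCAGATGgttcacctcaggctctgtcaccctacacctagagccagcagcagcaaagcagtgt
Th: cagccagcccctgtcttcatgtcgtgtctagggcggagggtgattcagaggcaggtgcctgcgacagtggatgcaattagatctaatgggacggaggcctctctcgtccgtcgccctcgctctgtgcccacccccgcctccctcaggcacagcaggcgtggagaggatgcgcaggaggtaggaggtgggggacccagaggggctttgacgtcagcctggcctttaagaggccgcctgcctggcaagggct
Neurod2: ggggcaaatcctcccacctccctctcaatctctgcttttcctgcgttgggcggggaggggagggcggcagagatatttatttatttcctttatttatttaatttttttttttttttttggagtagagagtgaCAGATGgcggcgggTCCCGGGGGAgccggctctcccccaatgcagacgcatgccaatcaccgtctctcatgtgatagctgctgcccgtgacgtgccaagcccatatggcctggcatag
Neurod6: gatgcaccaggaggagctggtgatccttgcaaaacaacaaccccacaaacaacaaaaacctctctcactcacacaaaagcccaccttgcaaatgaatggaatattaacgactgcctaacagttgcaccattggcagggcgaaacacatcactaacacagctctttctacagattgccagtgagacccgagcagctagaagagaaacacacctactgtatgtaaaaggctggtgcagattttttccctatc

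The motifs were searched on both strands as exact letters: CAGATG, an E-box of the kind that proneural factors bind, TAATTA, a homeodomain core, the Ebf palindrome, and AGGTGTGA, a T-box half-site. Doc2g holds CAGATG from 61 bases before its start. Neurod2 holds CAGATG from 118 bases and the Ebf palindrome from 104 bases before its start, and these do not overlap. The other 3 stretches hold none of the 4. Over all 32851 stretches of this length in the table, 14.4% held CAGATG, 4.84% TAATTA, 0.779% the Ebf palindrome and 1.12% AGGTGTGA, and over the 16039 stretches of genes tested the shares were 11%, 2.92%, 0.923% and 0.848%. CAGATG was found in 14.4% of the stretches of genes called at least 2-fold higher in the bulb and in 13.5% of those called at least 2-fold higher in the cortex, and TAATTA in 4.73% and 3.23%. The Ebf palindrome was found in 0.925% and 1.51%, and AGGTGTGA in 0.617% and 0.79%, so these 2 had the larger share on the cortex side. No test was made. These are matches of letters and not binding sites.

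Levels below are log2 of the processed signal minus the array's 75th percentile, and differences are olfactory bulb minus cortex on that scale, with the standard error (SE) from limma over 2 arrays a region. A gene was called at a Benjamini-Hochberg adjusted p under 0.05 over all probes tested. The bulb arrays were brighter: 36614 and 39057 of 59305 non-control spots passed the background test there (saline and PAMAM), against 34354 and 34134 in the cortex, and the 75th percentile of the signal was 679.1 and 709.6 against 541.6 and 452.0. Of 23604 genes tested, 26.4% were called: 2850 (12.1%) were higher in the bulb and 3379 (14.3%) in the cortex, of which 1460 (6.19% of genes tested) and 1546 (6.55%) differed at least 2-fold. The list counts below are to be read beside the shares of 12.1% and 14.3%. Of 34032 probes, 26.5% were called, 13.3% higher in the bulb and 13.1% in the cortex, and 6.86% and 6.07% were also at least 2-fold apart. Of 1185 genes tested through the bulb alone, because they were above background on neither cortex array, 592 were called higher in the bulb and 0 higher in the cortex; of 163 tested through the cortex alone, 158 were called higher in the cortex and 0 in the bulb. Among the 21292 genes above background on all 4 arrays, 10% were called higher in the bulb and 14.7% in the cortex. Both bulb arrays lie in the first row of the slide and both cortex arrays in the second, so region and slide row cannot be told apart in these 4 arrays. With the hippocampus arrays added and the slide row as a term, limma called 0 probes, with 8068 at an unadjusted p under 0.05. Only the hippocampus has arrays in both rows, the saline array in the first and the PAMAM array in the second. The row term therefore rests on them and cannot be told apart from a PAMAM effect particular to the hippocampus. With the hippocampus arrays added and 1 bulb array left out, 1397 probes were higher in the bulb and 1530 in the cortex without the saline bulb array, and 1271 and 1417 without the PAMAM bulb array. Of 305 called genes named here or in the lists, 176 and 166 were still called without the saline and without the PAMAM bulb array, against 263 and 261 without the saline and without the PAMAM cortex array. Where leaving out 1 array moved a list's count of more than 2 genes by over 1.5 times, the counts or the median from these fits follow it. The words "without either array" after a count mean that leaving out the one or the other gave the same count.

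The region difference was compared between the treatments. Of 3490 genes at least 2-fold apart in the saline arrays, 2617 were at least 2-fold apart in the same direction in the PAMAM arrays, which is 75% of the saline list and 73.7% of the 3551 genes of the PAMAM list. The direction was opposite in 108. Because each treatment has 1 array a region, these are values without a test, and the SE of a difference holds any unequal treatment effect in the regions as well as noise.

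**Figure D1:**
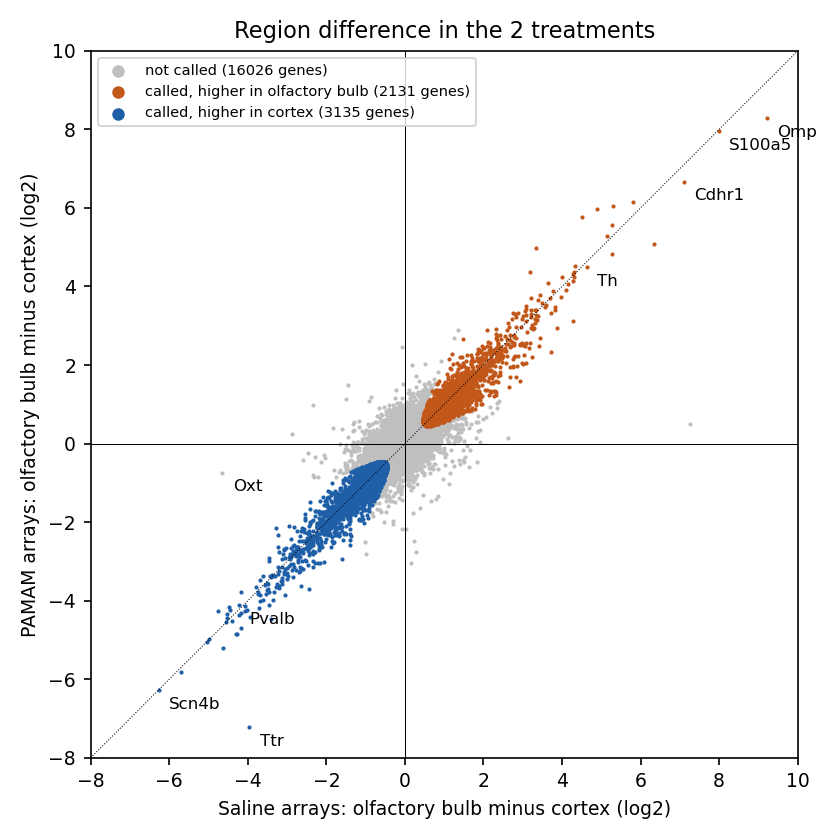
Each point is 1 of the 21292 genes above background on all 4 arrays, with the bulb minus cortex difference in the saline arrays on the horizontal axis and in the PAMAM arrays on the vertical axis (log2); colours mark the 2131 genes called higher in the bulb and the 3135 called higher in the cortex, and the dotted line marks equal differences. Omp lies far out at the upper right, Scn4b at the lower left, and Oxt and Ttr lie away from the line.

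Omp and S100a5, genes of olfactory sensory neurons, had the largest differences on the bulb side among genes above background on all 4 arrays. Omp, the olfactory marker protein of mature sensory neurons, was at 5.48 (saline) and 5.36 (PAMAM) in the bulb and at -3.73 and -2.92 in the cortex, a difference of 8.75 (SE 0.28, adjusted p = 0.00908) or 430-fold. Its probe lies at chr7:105291870-105291929 (mm9, minus strand). S100a5, a calcium-binding protein of the same neurons, was at 5.35 on both bulb arrays and at -2.63 and -2.61 in the cortex, a difference of 7.97 (SE 0.10, adjusted p = 0.00907). In both genes the bulb and cortex arrays were far apart.

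The sensory neuron list as a whole, which includes Omp and S100a5, was mixed. Of 14 members tested, 5 were higher in the bulb, 3 in the cortex and 6 were not called, and the median was 0.07 (-0.02 and -0.05 with normexp background correction and with median centring). Leaving out either bulb array gave 3 in the bulb and 2 in the cortex. Stoml3, a membrane protein of the sensory cilia, was at 0.09 and -0.03 in the bulb and not well above background in the cortex, at least 23.1-fold higher. The transduction channel subunits Cnga2 (0.30, adjusted p = 0.171) and Cnga4 (-0.14, adjusted p = 0.644) were not called. Cngb1, the third subunit, was not called on its brightest probe (-0.15), but its other probes differed by 0.43 and 3.80, in favour of the bulb. Gnal, the olfactory G protein that striatal neurons also use, was higher in the cortex, at 4.52 and 4.57 against 2.66 and 2.55 in the bulb. Adcy3 (-0.63) and Ano2 (-2.48), the cyclase and the chloride channel of transduction, were higher in the cortex too.

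Mitral and tufted cell markers were higher in the bulb for 9 of 13 tested members, with a median of 3.65 and 3.65 also with members below background set to their bound. Over all genes tested the median was -0.05. Of the 9 members above background on all 4 arrays, 6 were higher in the bulb and 2 in the cortex, with a median of 2.58. Cdhr1, a cadherin of these cells, was at 4.85 and 4.79 in the bulb and -2.25 and -1.88 in the cortex, a difference of 6.89 (SE 0.16). Doc2g, related to synaptic calcium sensors, was at 4.31 and 4.30 against -1.49 and -1.85. Neither gene's bulb arrays came near its cortex arrays.

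Tbx21 and Eomes, the T-box factors of these cells, were near background in the cortex. Tbx21 was at 2.12 and 2.14 in the bulb and not well above background on either cortex array, at least 98.9-fold higher in the bulb. The brightest probe of Eomes was at 3.34 and 3.39 in the bulb and at least 226-fold higher there, and its other probe, which was above background on 1 cortex array, differed by 5.01. Shisa3, a regulator of Wnt and FGF receptors, was at least 41.6-fold higher. Members that pyramidal neurons share with mitral cells went the other way: Tbr1, a T-box factor of deep layer neurons, differed by -2.98 (SE 0.13), and the peptide gene Cck differed by -1.44 (SE 0.13). Slc17a6, which encodes vesicular glutamate transporter VGLUT-2, was at -0.03 and -0.02 in the bulb and 0.08 and 0.10 in the cortex, and was not called.

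Bulb interneuron genes were higher in the bulb for 19 of 23 tested members, with 1 higher in the cortex and a median of 2.46. The homeodomain factors Dlx1 (3.52, SE 0.12), Dlx2 (3.21, SE 0.13), Dlx5 (1.94, SE 0.11) and Dlx6 (1.54, SE 0.24) were all higher in the bulb. Sp8, a zinc finger factor needed for periglomerular cells, differed by 5.66 on its brightest probe and by 0.39 on its other probe. The zinc finger factor Tshz1 was at 4.58 and 4.55 against 1.62 and 1.58. Pax6, needed for dopaminergic periglomerular cells, was at -0.06 and -0.09 against -3.28 and -3.40. Six3, a forebrain homeobox factor that striatal neurons also express, was the member on the cortex side: it was at -0.76 and -0.73 in the cortex and not well above background in the bulb, at least 20.5-fold higher in the cortex.

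Genes shared by inhibitory neurons of both regions were also measured. Gad1, which makes GABA, was at 5.56 and 5.42 in the bulb and 3.87 and 3.88 in the cortex, and Gad2 differed by 0.82 (SE 0.11, adjusted p = 0.0276). The GABA transporter of vesicles, Slc32a1, was at 6.59 and 6.45 against 6.10 and 5.98 and was not called (adjusted p = 0.051). Calcium-binding proteins of interneurons were called on both sides. Calb2 was at 1.96 and 1.99 against -2.93 and -3.98, and Scgn was at least 16.1-fold higher in the bulb. Calb1, which periglomerular cells and upper layer neurons both express, was at -1.84 and -1.90 in the bulb and 1.26 and 1.37 in the cortex.

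Dopamine genes were called on both sides. Th, the rate-limiting enzyme of dopamine synthesis, was at 5.04 and 4.88 in the bulb and at 0.41 and 0.39 in the cortex, a difference of 4.56 (SE 0.10, adjusted p = 0.00907). The dopamine transporter Slc6a3 was at least 29.1-fold higher in the bulb, and the vesicle transporter Slc18a2 differed by 0.78 (SE 0.11). Ddc, the next enzyme of the pathway, was at 0.78 and 0.61 in the bulb and 0.78 and 0.60 in the cortex and was not called, while its other probe differed by 0.94. The receptors Drd1 (-4.46, SE 0.10) and Drd2 (-2.17, SE 0.11) were higher in the cortex, and Drd4 (-0.05) and Drd5 (0.49) were not called. Drd4 and Drd5 were not well above background on either cortex array. Over the list, 4 of 18 tested members were higher in the bulb and 5 in the cortex, and 2 and 2 without either bulb array.

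**Figure D2:**
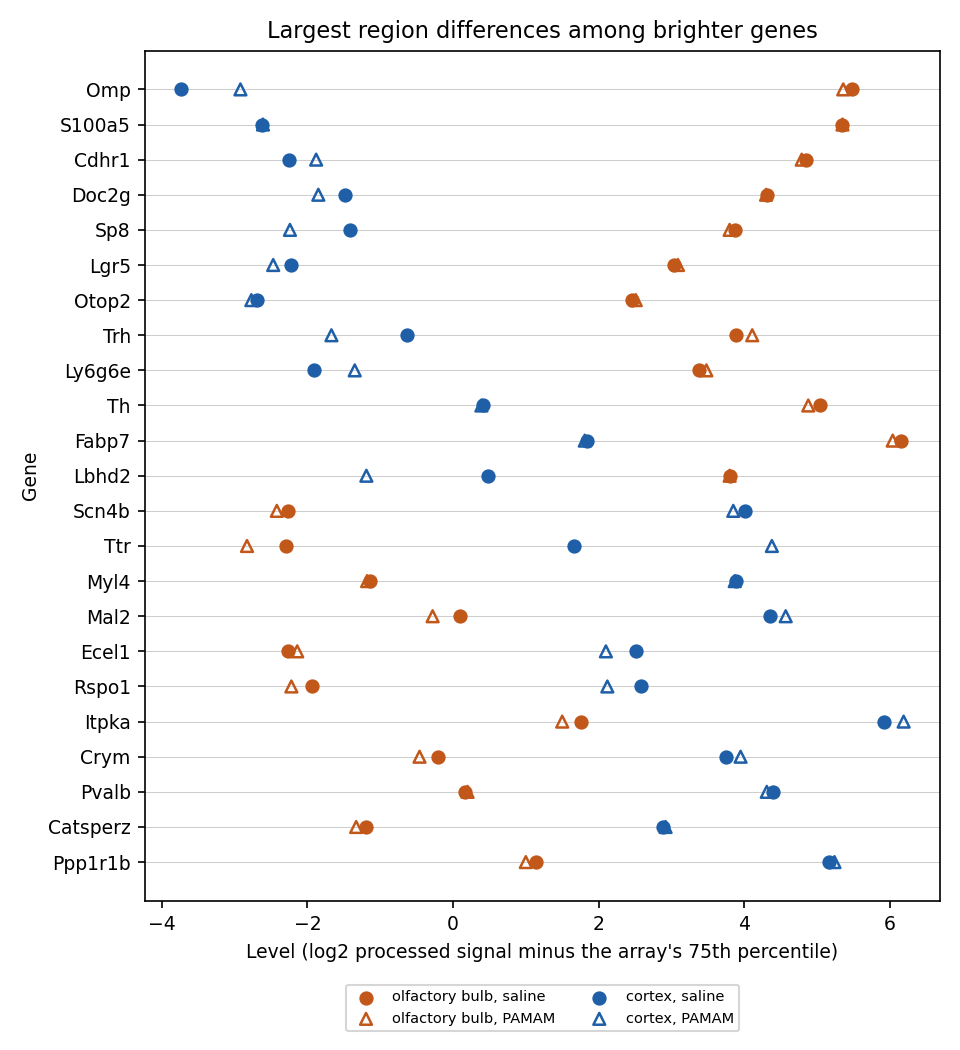
Level (log2 processed signal minus the array's 75th percentile, horizontal axis) of 12 genes with the largest difference on the bulb side and 11 on the cortex side among called genes brighter than the median, on the 4 arrays: circles are saline, triangles PAMAM, orange the bulb and blue the cortex. In all 23 genes both bulb arrays lie on the same side of both cortex arrays. The choice of genes required the same direction within each treatment. Ttr and Lbhd2 have the widest gap between the cortex arrays.

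Genes of migrating neuroblasts were higher in the bulb for 10 of 15 tested members, with 2 higher in the cortex and a median of 0.98. These counts were 6 and 0 when either bulb array was left out. Dcx, a microtubule protein of immature neurons, was at 2.83 and 2.86 in the bulb and 0.01 and -0.10 in the cortex, and its other probes differed by 2.62 to 2.97. Prokr2, a receptor that guides neuroblasts into the bulb, was at 1.13 and 1.15 against -3.20 and -3.35. Igfbpl1, which marks young neurons, was at 0.61 and 0.81 against -2.57 and -3.54. Of 12 tested genes of cell division, 8 were higher in the cortex, among them Mki67 (-0.50, SE 0.10) and Cenpa (-2.35, SE 0.10), and 1 in the bulb, Nusap1 (1.24, and -0.08 with normexp background correction). Nusap1 was not above background on both cortex arrays and was tested only through the bulb. Among members above background on all 4 arrays, 0 were called higher in the bulb. The cortex count was 2 without the saline bulb array, 3 without the PAMAM bulb array and 4 without the PAMAM cortex array, and 6 of the 9 members above background on all 4 arrays were called. Top2a, Cdk1 and Aurkb were not well above background on any of the 4 arrays.

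Ensheathing glia, which wrap the sensory axons in the outer layer of the bulb, had 6 of 8 members higher in the bulb (3 without the PAMAM bulb array), with a median of 1.31. Fabp7, a fatty acid binding protein, was at 6.15 and 6.04 against 1.84 and 1.81, and Prss56, a serine protease, was at least 9.67-fold higher. The broader glial genes Sox10 (0.26) and Ngfr (-0.20) were not called. Astrocyte genes were called on both sides, with 6 of 19 higher in the bulb and 2 in the cortex and a median of 0.09 (-0.03 with median centring). The counts were 3 and 1 without either bulb array, 4 and 4 with median centring, 7 and 4 with normexp or with all 6 arrays, and 7 and 6 with an intensity trend in the spread. The GABA transporter Slc6a11 was higher in the bulb by 2.51 (SE 0.14) and the water channel Aqp4 by 1.17 (SE 0.10), while the glutamate transporter Slc1a2 differed by -1.38 (SE 0.13).

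Pyramidal neuron genes made up the opposite side. Of 16 pallial excitatory neuron genes tested, 14 were higher in the cortex, with a median of -2.37. On the brightest probe the bulb level was below the cortex level in all 16. Arpp21 differed by -2.55 on that probe, but its other probes differed by 0.14 to 0.17. Neurod6 was at 1.42 and 1.56 in the cortex and -2.89 and -3.29 in the bulb, a difference of -4.58 (SE 0.18, adjusted p = 0.00913). Neurod2 was at 3.16 and 3.17 against 0.00 and -0.33. Itpka, an inositol phosphate kinase of dendritic spines, was at 5.92 and 6.19 against 1.76 and 1.5, and the calmodulin-binding Nrgn of the same spines at 4.97 and 5.0 against 1.73 and 1.88. Slc17a7, vesicular glutamate transporter VGLUT-1, which mitral cells also express, differed by -0.88 (SE 0.11). Neurod1 (-0.39) and Ptk2b (-0.45) were not called.

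Layer genes of the cortex were called on both sides. Of 14 upper layer genes tested, 9 were higher in the cortex (5 without the PAMAM bulb array), with a median of -1.56. Rspo1, a secreted Wnt agonist, was at 2.58 and 2.12 against -1.94 and -2.22. Rorb, a nuclear receptor of layer 4 neurons, was at 2.23 and 1.80 against -0.05 and -0.04. Of 20 deep layer genes, 8 were higher in the cortex and 5 in the bulb, and the bulb count was 1 without either bulb array and 3 without the saline cortex array. Fezf2, which directs neurons to project below the cortex, was at 0.93 and 1.03 against -2.69 and -2.93, while Syt6 (1.25, SE 0.12) and Nxph4 (1.68, SE 0.11) were higher in the bulb and Bcl11b (0.18, adjusted p = 0.249) was not called.

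Genes of interneurons that come from the ganglionic eminences were called on both sides. Pvalb, the calcium buffer of fast-spiking cells, was at 4.39 and 4.31 in the cortex and 0.17 and 0.20 in the bulb, a difference of -4.17 (SE 0.10), and its other probe differed by -4.64. Sst, the peptide somatostatin, was at 4.45 and 4.70 against 0.74 and 0.53. Lhx6, a factor of the same lineage, was at 4.63 and 4.95 against 4.30 and 4.47 on its brightest probe and was not called, but its other probe differed by -5.42. Ndnf (3.31, SE 0.10) and Adarb2 (1.98, SE 0.12) were higher in the bulb. Kcnc1, a potassium channel of fast-spiking cells, was higher in the bulb (0.66, SE 0.11), and the cannabinoid receptor Cnr1 in the cortex (-2.36, SE 0.13). In all, 10 of 18 tested members were higher in the cortex and 6 in the bulb, and 6 and 4 without the PAMAM bulb array.

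**Figure D3:**
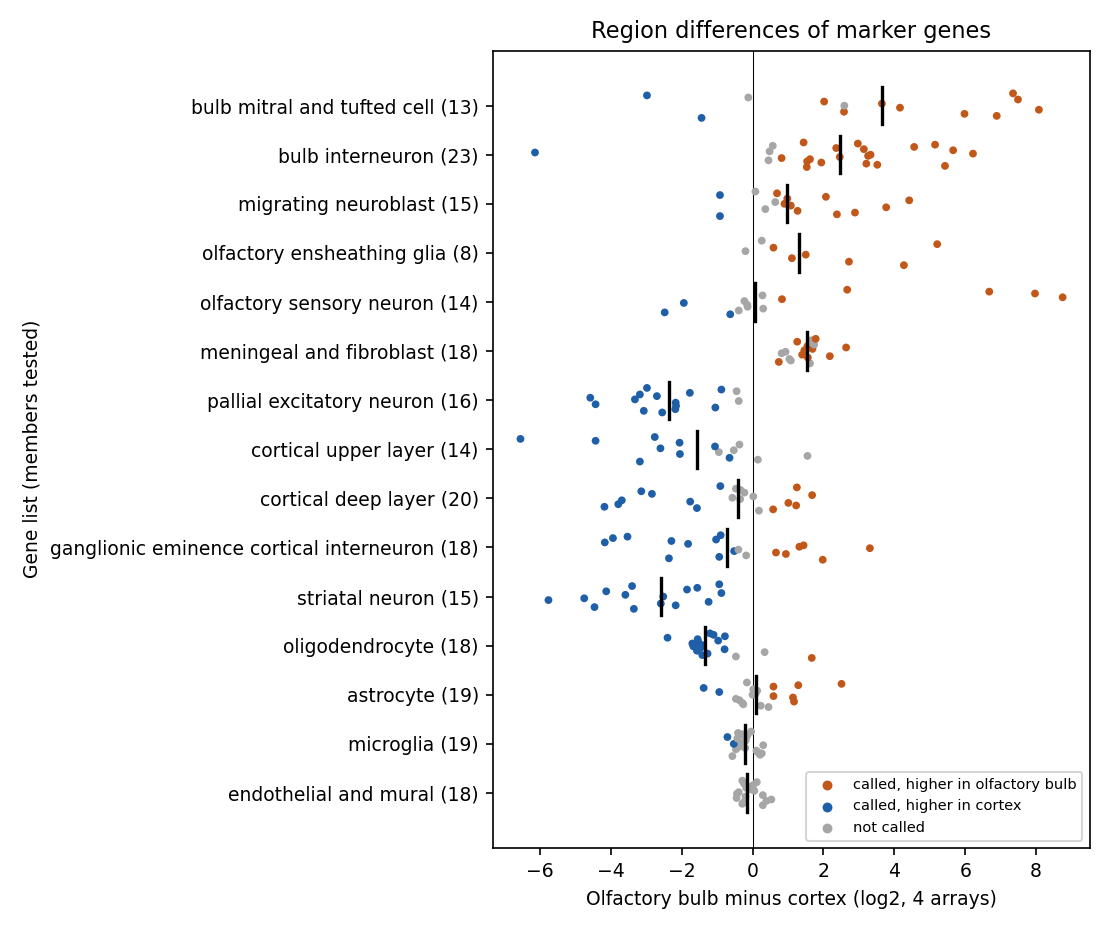
Each point is a tested member of a gene list, placed by its bulb minus cortex difference (log2, 4 arrays) and coloured by its call; vertical bars are list medians and the number of members tested stands after each name. The mitral and tufted cell list (median 3.65) and the striatal list (median -2.59) lie farthest apart, and endothelial and mural genes lie around 0.

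Ion channel genes were called on both sides. Over all genes tested, 12.1% were called higher in the bulb and 14.3% in the cortex, and the bulb count of potassium and HCN channels below is near that share. Scn4b, a sodium channel subunit, was at 4.01 and 3.85 in the cortex and -2.26 and -2.42 in the bulb, a difference of -6.27 (SE 0.10). Of 36 potassium and HCN channel genes tested, 16 were higher in the cortex and 5 in the bulb (10 and 2 without the saline bulb array, 9 and 2 without the PAMAM bulb array, 18 and 8 with normexp, 20 and 8 with an intensity trend, 15 and 3 with the median of a gene's probes). Kcns1 was at least 9.70-fold higher in the cortex, and Kcnv1 (-2.37, SE 0.10) and Kcna6 (-2.15, SE 0.10) were higher there, while Hcn3 (1.41, SE 0.10) and Kcnb2 (1.69, SE 0.13) were higher in the bulb. Among GABA receptor genes, 9 of 17 were higher in the cortex (3 without either bulb array), with Gabbr2 at -2.90 (SE 0.14) and Gabrd at -1.29 (SE 0.10), and Gabra5 (1.49, SE 0.10) alone in the bulb.

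Of 24 glutamate receptor genes, 7 were higher in the bulb and 8 in the cortex, with a median of 0.03 (-0.09 with median centring). Without the saline bulb array 0 were higher in the bulb and 4 in the cortex, and 0 and 3 without the PAMAM bulb array. Grik4 was at 2.35 and 2.30 in the cortex and 0.00 and -0.20 in the bulb, and the NMDA receptor subunit Grin2a differed by -1.57 (SE 0.12). Neuropeptide genes were higher in the cortex for 12 of 22 and in the bulb for 7, which became 8 and 2 without the saline bulb array, 5 and 2 without the PAMAM bulb array and 9 and 4 without either cortex array. Trh, the thyrotropin-releasing hormone precursor, was at 3.89 and 4.11 in the bulb and -0.63 and -1.67 in the cortex, and Nmb, neuromedin B, at 5.38 and 5.34 against 1.56 and 1.87. Grp, the related gastrin-releasing peptide, was at least 21.2-fold higher in the cortex.

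Axon guidance genes were higher in the cortex for 15 of 38 tested members and in the bulb for 8 (10 and 3 without either bulb array). Robo3, a receptor of the Robo family, was at 1.79 and 1.56 in the cortex and -2.38 and -2.77 in the bulb. The guidance ligands Slit2 (-2.91, SE 0.17) and Slit3 (-1.98, SE 0.10) were higher in the cortex as well. Ntng1, a netrin-related membrane protein, was at 4.04 and 4.11 in the bulb and 2.10 and 2.29 in the cortex, and Epha3 differed by 1.97 (SE 0.10). Forebrain patterning factors were higher in the bulb for 16 of 27 tested members and in the cortex for 5, with a median of 1.51. Both counts fell when either bulb array was left out. The median was then 1.38 without the saline bulb array and 1.55 without the PAMAM bulb array. Meis1 (3.36, SE 0.10) and Zic1 (2.36, SE 0.15) stood beside the Dlx genes on the bulb side, while Emx1 (-2.16, SE 0.10) and Lhx2 (-1.05, SE 0.11) were higher in the cortex.

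Myelin genes were higher in the cortex for 15 of 18 tested members (9 without either bulb array), with a median of -1.34. Mag, a myelin glycoprotein, was at 4.23 and 4.11 against 2.57 and 2.44, and Opalin was at -0.61 and -1.25 against -3.18 and -3.48. Apod, an apolipoprotein that meningeal cells also make, was higher in the bulb by 1.67 (SE 0.14). Of 19 microglia genes, Gpr34 and Selplg were called higher in the cortex, with 8 at an unadjusted p under 0.05 there. The microglia count was 0 without either bulb array, 3 without the saline cortex array, 6 with normexp or with no treatment term, 7 with median centring or all 6 arrays and 10 with an intensity trend. By limma, 0 of 18 endothelial and mural genes were called, with 4 at an unadjusted p under 0.05 (1 higher in the bulb and 3 in the cortex), and 5 were called with an intensity trend (2 in the bulb and 3 in the cortex). In bulk tissue, a smaller share of a cell type and less RNA per cell cannot be told apart. Ribosomal protein genes were called in 1 of 32 (median -0.16, and 0.13 with quantile normalization) and respiratory chain genes in 2 of 30 (median -0.28, and 0.01 with quantile normalization), all higher in the cortex. Ribosomal calls were 0 with quantile normalization, without either bulb array or without the PAMAM cortex array, 4 with normexp or all 6 arrays, 3 with median centring and 14 with an intensity trend. Respiratory chain calls were 0 with quantile normalization, without the saline bulb array or without the PAMAM cortex array, 1 without the PAMAM bulb array or with the authors' deposited values, 10 with normexp, all 6 arrays or no treatment term, 11 with median centring and 19 with an intensity trend.

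Striatal markers and most hippocampal markers tested were higher in the cortex, while thalamic and hypothalamic markers were called on both sides. All 15 striatal neuron genes tested were higher in the cortex, with a median of -2.59. Ppp1r1b, the phosphatase regulator DARPP-32 of medium spiny neurons, was at 5.17 and 5.24 in the cortex and 1.14 and 1.0 in the bulb. Isl1 and Lhx8, factors of striatal and basal forebrain neurons, were not well above background in the bulb and at least 6.54-fold and 21.9-fold higher in the cortex. The summed linear level of the list was 219.0 and 227.0 on the cortex arrays, 57.6 and 56.8 on the bulb arrays and 40.4 and 44.4 on the hippocampus arrays. Each sum adds all 15 members, none of which was below background on a cortex array. The part of striatal tissue in the cortex values of genes such as Scn4b, Drd1, Gnal and Six3 was not tested. Of 11 thalamic neuron genes tested, 4 were higher in the cortex and 2 in the bulb, with a median of -0.26. That median was -0.32 without the saline bulb array and -0.30 without the PAMAM bulb array. It was 0.25 without the saline cortex array and -0.83 without the PAMAM cortex array.

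Hippocampal genes were measured in the same way. Spink8 was at 3.04 and 2.95 on the hippocampus arrays, at -0.80 and 0.02 on the cortex arrays and not well above background in the bulb, at least 26.2-fold higher in the cortex than in the bulb. Lct was at 2.71 and 2.48 on the hippocampus arrays and at -1.65 and -1.03 on the cortex arrays, at least 13.6-fold higher than in the bulb. Of 13 tested members, 8 were higher in the cortex and 2 in the bulb. Of the 13, 4 were above background on both cortex arrays but not on both bulb arrays, and 2 the other way round. Of the 7 above background on all 4 arrays, 4 were higher in the cortex and 1 in the bulb. The bulb count was 0 without either bulb array and 4 without the PAMAM cortex array, with median centring or with an intensity trend. The summed level was 58.0 and 77.4 on the cortex arrays, 45.0 and 44.0 on the bulb arrays and 172.0 and 156.0 on the hippocampus arrays. The part of this in the pyramidal neuron values was not tested.

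The 2 cortex arrays differed from each other in markers of other tissues. Oxt, oxytocin of the hypothalamus, was at 1.11 in the saline cortex and -2.36 in the PAMAM cortex, with -3.54 and -3.10 in the bulb, and was not called. Other hypothalamic genes went other ways. Of 11 tested members of that list, 3 were higher in the bulb, Trh and Gal among them, and 2 in the cortex, with a median of -0.11. The summed level of the list was 45.5 and 45.7 in the bulb and 23.4 and 17.5 in the cortex. Ttr, transthyretin of the choroid plexus, was at 1.66 and 4.38 in the cortex and -2.29 and -2.83 in the bulb, and its difference of -5.58 had an SE of 0.91. The summed choroid plexus level was 32.5 and 56.0 in the cortex and 18.3 on both bulb arrays. A large part of each sum is 1 member, Enpp2, at 4.76 and 4.97 in the cortex and 3.50 and 3.52 in the bulb. Over the 12 tested members the median was -0.81, and the bulb level was above the cortex level in 3. Aqp1, a water channel that the choroid plexus also makes, was at 2.21 and 2.16 in the bulb and -4.14 and -2.92 in the cortex.

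Meningeal and fibroblast genes were higher in the bulb for 10 of 18 tested members, with a median of 1.55. The count was 3 without the saline bulb array, 5 without the PAMAM bulb array, 16 without the PAMAM cortex array, 16 with normexp and 18 with median centring. Dcn, decorin of connective tissue, was at 3.49 and 3.47 in the bulb and 0.82 and 1.77 in the cortex. Ogn, another matrix proteoglycan, was at 1.44 and 1.42 against -0.96 and 0.33 and was not called. The summed level was 58.6 and 56.5 in the bulb and 13.8 and 24.0 in the cortex, so the cortex arrays differed from each other more than the bulb arrays did.

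**Figure D4:**
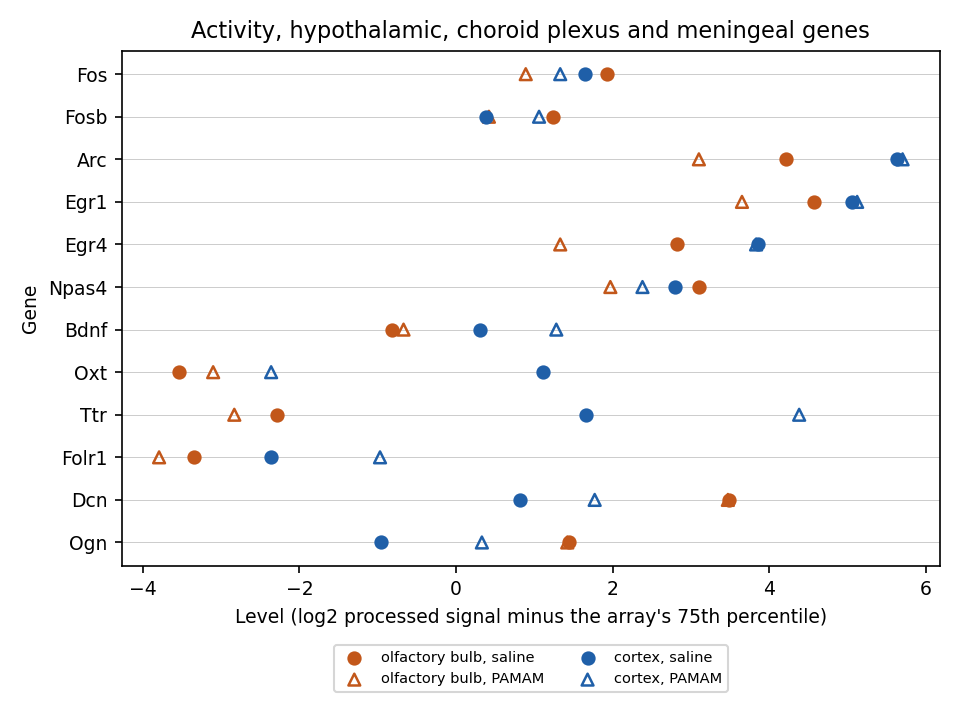
Level (log2 processed signal minus the array's 75th percentile, horizontal axis) of 12 genes of neuronal activity, the hypothalamus, the choroid plexus and the meninges on the 4 arrays, chosen after their values were seen; circles are saline, triangles PAMAM, orange the bulb and blue the cortex. Oxt and Ttr separate the cortex arrays, and Arc, Egr1 and Egr4 separate the bulb arrays.

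Genes of the immediate early response to neuronal firing had a region difference of unequal size in the treatments. In the saline arrays the median of 22 tested members was -0.23, and in the PAMAM arrays it was -0.87. Arc, a synaptic protein, was at 4.21 and 3.1 in the bulb and 5.63 and 5.70 in the cortex, so both bulb arrays were below both cortex arrays (difference -2.0, SE 0.34, adjusted p = 0.0396). Egr4 was at 2.82 and 1.33 against 3.85 and 3.83 and was not called (adjusted p = 0.0671). Fosb was at 1.24 and 0.42 in the bulb and 0.38 and 1.06 in the cortex, so the order of the regions was opposite in the 2 treatments. Over the list 6 members were called higher in the cortex, which became 2 without the PAMAM bulb array, 3 without the PAMAM cortex array and 11 with normexp or with median centring. With 1 array for each region and treatment, this dependence could not be tested.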

How the data were processed

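Total RNA pooled from 6 experiments was labelled with Cy3 by Agilent's one-colour protocol, per the labels' protocols. The authors deposited spot intensity on a linear scale, made with Agilent Feature Extraction 10.7.3.1 per the file headers, and a table of log2 values of the same arrays, used as an alternative. Set against the scanner values, that deposited table is log2, scaled to the 75th percentile and centred by probe, with r of at least 0.9999. Its column medians were -0.0906 and -0.0617 in the bulb and 0.0432 and 0.0346 in the cortex. Any filter behind it is not given in the sources used here.

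Processed signals were put on the log2 scale and shifted by the 75th percentile of the non-control spots of the same array. After removal of outlier spots, which cost 15 probes, repeated spots were averaged. Probes well above background on both arrays of at least 1 region (34032) were fitted with limma 3.58.1 in R 4.3.3, with region and treatment as terms, 1 residual degree of freedom and 2.2 prior degrees of freedom. With so few, an SE rests mostly on the spread shared by all probes. A gene is read on its brightest probe. Where a probe was below background on both arrays of a region, the fold is a bound: the bright mean against, per array, the higher of the dim probe's level and the lowest level among probes well above background. RefSeq accessions named 27235 of 55681 probes, and 28446 keep the name in the file. Probe coordinates are mm9. The fit was tested on simulated data with independent noise drawn from the fitted spread. The simulation held no slide row or treatment effect, so it cannot show how the fit handles these. P-values measure the spread between these pooled arrays.

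Named genes are the 12 with the largest difference on each side (called, above background on all 4 arrays, brighter than the median, at least 2-fold the same way in both treatments), the 6 largest bounds each way, members of 32 gene lists (626 entries, 625 on the array), and 6 members whose treatments disagree most. Some genes that this rule names are not reported here. The genes and lists were chosen with earlier results of these data known. Motifs, the genes whose upstream stretches are shown and the count of calls at least 2-fold apart were chosen after the data were seen.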

Additional observations from a re-analysis of the deposited data

Results flagged for a closer look

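Only the named genes and list members tested and reported here were searched for a reversal between the treatments. In 2 of them the bulb and the cortex stood in opposite order in the saline and the PAMAM arrays, by at least 0.5 in each. This limit was set after the values were seen. Over all genes tested, 108 of the 3490 at least 2-fold apart in the saline arrays had the opposite direction in the PAMAM arrays. Fosb, a factor of neuronal activity, differed by 0.85 (bulb minus cortex, log2) in the saline arrays and by -0.64 in the PAMAM arrays. Kl, the klotho gene of the choroid plexus, differed by 0.85 and -1.27, and was well above background on 1 cortex array. Each value is 1 array against 1, and the difference between the treatments was not tested.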

How the results depend on the processing

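Of 305 named genes and list members called and reported here, 283 to 304 were called in the same direction with normexp background correction, quantile normalization, median centring, 6 arrays, no treatment block, the authors' deposited values or an intensity trend, and 287 with the median of a gene's probes. A test against 2-fold kept 113 of them. By limma, 0 probes were called without a filter on dim probes (16629 at an unadjusted p under 0.05), and 0 with all 6 arrays and the slide row as a term (8068 at an unadjusted p under 0.05), on either side and also at 2-fold. In the fit with the slide row, 303 of the 305 kept their sign, and Drd3 (0.36) and Zfhx3 (0.09) reversed. The row term in that fit rests on the hippocampus arrays, the only region with arrays in both rows. Of 4474 probes called higher in the cortex, the count became 8769 with normexp, 7900 with median centring, 6876 with 6 arrays and 8309 with an intensity trend. A test against 2-fold called 569 probes in the bulb and 486 in the cortex. The share of called probes on the bulb side was 50.4%, and 35.2% with normexp, 39.3% with median centring and 33.2% among brighter probes; median centring moved the median of all probes by -0.123. The 2336 bulb probes at least 2-fold apart became 951 with normexp, 1375 above background on all 4 arrays and 629 among brighter probes, and the 2066 cortex probes became 1126 among brighter probes.

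Leaving out 1 array of the 4, with the hippocampus arrays kept, gave 1271 to 4562 probes higher in the bulb and 1417 to 4219 in the cortex (at least 2-fold: 1271 to 2509 and 1417 to 2072; bulb share 47.3% to 52%). The counts were 1397 and 1530 without the saline bulb array and 1271 and 1417 without the PAMAM bulb array. All 305 genes kept their sign, and 176, 166, 263 and 261 were called without the saline bulb, PAMAM bulb, saline cortex and PAMAM cortex array. The lone array of a region is then assumed to vary like the others. Taking the median of a gene's probes reversed Arpp21 (0.17), and reversed Ermn (-0.64), Cngb1 (0.82) and Kcnc1 (-0.17), and normexp reversed Nusap1 (-0.08); Ermn and Cngb1 were not called on their brightest probe. No paired analysis was possible because the labels carry no replicate numbers; the treatment term sets each bulb array against the cortex array of the same treatment, and without it 5684 probes were higher in the bulb and 6249 in the cortex. The cause of these changes was not tested. The number of arrays limits the precision.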

Other observations

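Several genes outside the lists were high on 1 array alone, and were chosen after their values were seen. Blm, a DNA helicase, was at 5.67 on the saline bulb array and between -1.81 and -1.32 on the other 5 arrays. Tmlhe was at 0.17 on the saline cortex array and -3.27 on the PAMAM cortex array. Slc16a7, a monocarboxylate transporter, was at -0.11 on the PAMAM bulb array and -2.71 on the saline bulb array. None of the 3 was called between the regions.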
